A study of Homo sapiens with 10 samples.

Results

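Zinc finger genes outside chromosomes 7 and 19 were examined in a list of H3K9me3 regions from BJ cells, a human foreskin fibroblast line, after knockdown of ERH. The genes were the protein-coding genes of a RefSeq table of GRCh38.p14 whose symbols consist of ZNF, ZFP, ZSCAN or ZKSCAN followed by a digit and that lie on an autosome other than 7 and 19. This rule gave 252 genes of the 20033 protein-coding genes on chromosomes 1 to 22, X and Y, spread over 18 autosomes, with none on chromosomes 13 and 21. It uses names and positions only, so it takes in a few genes that are not C2H2 zinc finger genes (ZFP36L1 and ZFP36L2, RNA-binding proteins with fingers of another type), 3 readthrough loci and 1 opposite-strand locus.

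The regions come from CUT&RUN, in which an antibody directs a micrococcal nuclease to its target in permeabilised cells and the DNA released there is sequenced. The group used here, labelled siERH H3K9me3, comprised 3 samples of BJ cells that had been given siRNA against ERH at 5 nM in 2 rounds, 3 days apart, and whose titles name no reprogramming factors. The authors deposited 1 merged region list for these 3 samples, with 10536 regions. The list has no values per sample and no read counts, so sequencing depth is unknown and nothing below has an error between replicates. The 3 siControl H3K9me3 samples and the SOX2 samples (2 siControl+OSKM and 2 siERH+OSKM) were not analysed here. A region therefore shows that the mark was called in knockdown cells and says nothing about what ERH knockdown changed. BJ is a single cell line, and a region list gives no expression of fibroblast markers against which the labelled cell type could be checked.

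C2H2 zinc finger proteins bind DNA through arrays of fingers, and a large share of the human family also carries a KRAB domain. KRAB recruits TRIM28 and, through it, the methyltransferase SETDB1, which places H3K9me3, the mark of heterochromatin, on the sequences that the fingers recognise, many of them retroelements. The genes for these proteins are themselves known to carry the mark over their bodies, above all over the final exon that encodes the finger array. ERH is a small conserved nuclear protein with a known role in H3K9 methylation in fission yeast.

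Of the 252 genes, 103 (40.9%, Wilson 95% interval 35.0 to 47.0%) shared at least 1 bp with a region. Among all protein-coding genes of the autosomes other than 7 and 19, called the same autosomes below, 10.3% did so (1719 of 16733). At least 10% of the gene body lay in regions for 79 zinc finger genes (31.3%), against 1.49% of all coding genes, and at least 50% for 30 (11.9%), against 0.269%. Intervals here cover counting error only, and neighbouring genes are not independent of each other. With 1 pooled list no test between samples exists, and these shares are given as a description.

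The covered share of the gene body ran from 0.54% to 94.8% over the 103 genes with a region, with a median of 32.9% (quartiles 12.4 and 52.1%). The 1616 other coding genes of these autosomes that overlapped a region had a median of 2.78%. By level, 24 zinc finger genes were covered by less than 10%, 18 by 10 to under 25%, 31 by 25 to under 50%, 23 by 50 to under 75% and 7 by at least 75%. A single region accounted for the overlap in 81 genes, 11 genes had 2 regions and 11 had 3 or more, up to 5 in ZNF248.

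The 7 genes covered by at least 75% lay on 6 chromosomes. ZNF595, near the end of the short arm of chromosome 4 (53321 to 88208), had 94.8% of its length in 2 regions of 36.8 and 27.7 kb. ZFP37 on chromosome 9 (113038377 to 113056724) was covered over 90.7% by 1 region of 16.9 kb. ZNF572 on chromosome 8 (124973295 to 124979389), an isolated gene of 6.09 kb, was covered over 87.3% by a region of 9.31 kb. The neighbours ZNF501 and ZNF502 on chromosome 3 were covered over 81.8% and 81.7% by separate regions of 7.46 and 12.3 kb. ZNF300 on chromosome 5 was covered over 81.2% and ZNF891 on chromosome 12 over 81.0%. These genes range from isolated genes to members of dense clusters, so a high covered share was not limited to clusters.

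Below them, 18 further genes completed the 25 most covered. In descending order these were ZNF354C (74.7%), ZNF879 (73.8%), ZNF883 (69.9%), ZNF84 (69.0%), ZNF717 (68.4%), ZFP69B (67.2%), ZNF32 (66.5%), ZNF268 (66.0%), ZNF594 (64.7%), ZNF397 (63.3%), ZFP3 (60.5%), ZNF454 (59.8%), ZNF436 (57.2%), ZNF354A (57.1%), ZNF75A (56.9%), ZNF510 (56.1%), ZNF141 (55.5%) and ZFP2 (54.8%). ZNF717 was covered by the longest region that touched any of the 252 genes, 91.5 kb on chromosome 3 from 75665312 to 75756839. The score of that region, a deposited value without a stated unit, came to 21.8 per bp, whereas the median over the regions touching these genes was 9.39. Among regions of at most 20 score units per bp, ZNF717 had none. How the authors handled reads that fit several zinc finger genes equally well is not given in the sources used here, so the assignment of signal between close relatives is uncertain.

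**Figure D1:**
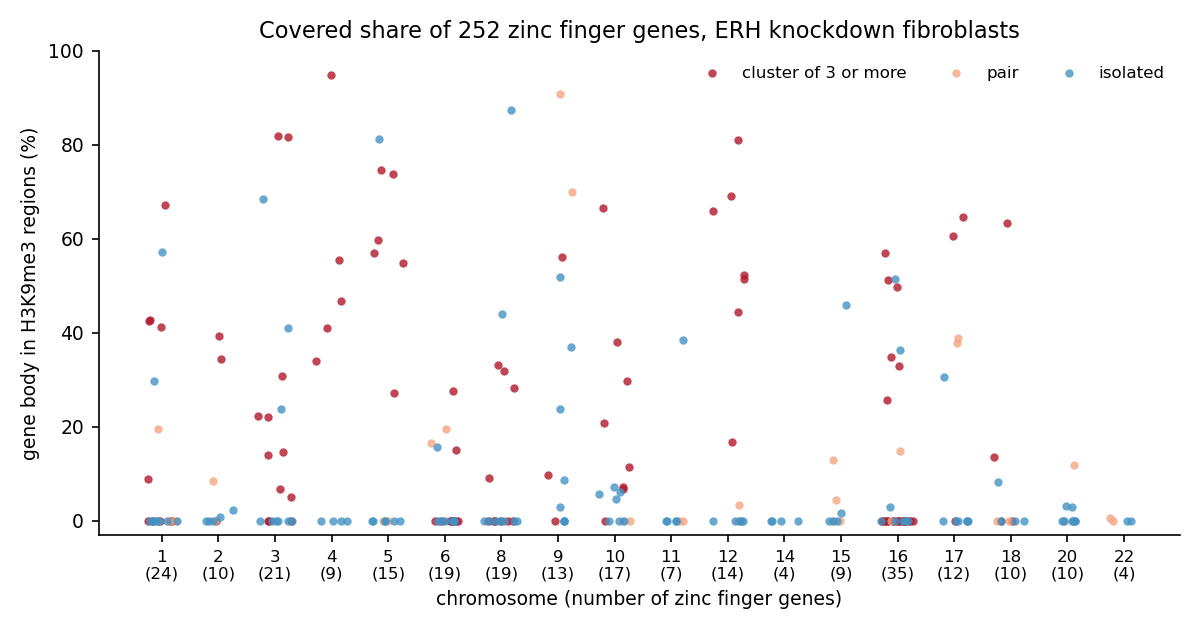
Share of the gene body in H3K9me3 regions (y axis, percent) for each of the 252 zinc finger genes by chromosome (x axis, number of genes in brackets), 1 point per gene, coloured by whether the gene lies in a cluster of 3 or more, in a pair or alone. The 149 genes without a region sit at 0, and genes above 50% occur on chromosomes 1, 3, 4, 5, 8, 9, 10, 12, 16, 17 and 18.

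The share of genes with a region differed between chromosomes. It was 9 of 13 on chromosome 9, 11 of 17 on chromosome 10, 12 of 21 on chromosome 3 and 8 of 14 on chromosome 12. Chromosome 16, with 35 genes the richest of these autosomes, had 10, and chromosome 6 had 5 of 19. On chromosome 14 no gene of 4 overlapped a region, and on chromosome 11 ZNF195 alone of 7 did. Small numbers per chromosome and shared clusters leave these shares without a test.

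Against the zinc finger genes of the other chromosomes, the 252 genes lay below those of chromosome 19 in the share with a region, and the median covered shares were of a like size. On chromosome 19, 183 of 262 zinc finger genes (69.8%, Wilson 95% interval 64.0 to 75.1%) overlapped a region, and on chromosome 7, 17 of 39 (43.6%, 29.3 to 59.0%). Across all protein-coding genes of chromosomes 1 to 22, X and Y the share was 10.5%. The median covered share of overlapping genes was 26.2% on chromosome 19 and 25.2% on chromosome 7, beside the 32.9% given above. The intervals of the chromosome 7 share and of the share for the 252 genes overlap. No test was made, because genes of a cluster share regions and are not replicates. Sets drawn by other names, chosen for C2H2 families, gave lower shares on the same autosomes. A region touched 4 of 38 ZBTB genes and 0 of 15 PRDM genes (which at 3 counts allows up to 20%). Of the genes named KLF or SP and a number, 4 of 23 were touched. That pattern goes by name only and is not limited to C2H2 genes. No gene of these sets was covered by as much as 10%.

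Long genes have more room for a region, so the count was set out by gene length. The zinc finger genes had a median length of 23.4 kb, and those with a region were longer (29.3 kb) than those without (18.8 kb). Between 10 and 20 kb, 27 of 70 zinc finger genes (38.6%) overlapped a region, against 36 of 2571 other coding genes (1.40%). Between 20 and 50 kb it was 40 of 83 (48.2%) against 3.99%, and between 50 and 100 kb 20 of 31 (64.5%) against 11.9%. The distance closed in the longest genes. At 100 kb and above, 11 of 30 zinc finger genes (36.7%) and 37.1% of the other genes overlapped a region, with median covered shares of 2.94% and 1.86%. Of the 13 zinc finger genes under 5 kb, none did (a count of 0 of 13 still allows 23.1%), and of other genes of that length 0.62% did.

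**Figure D2:**
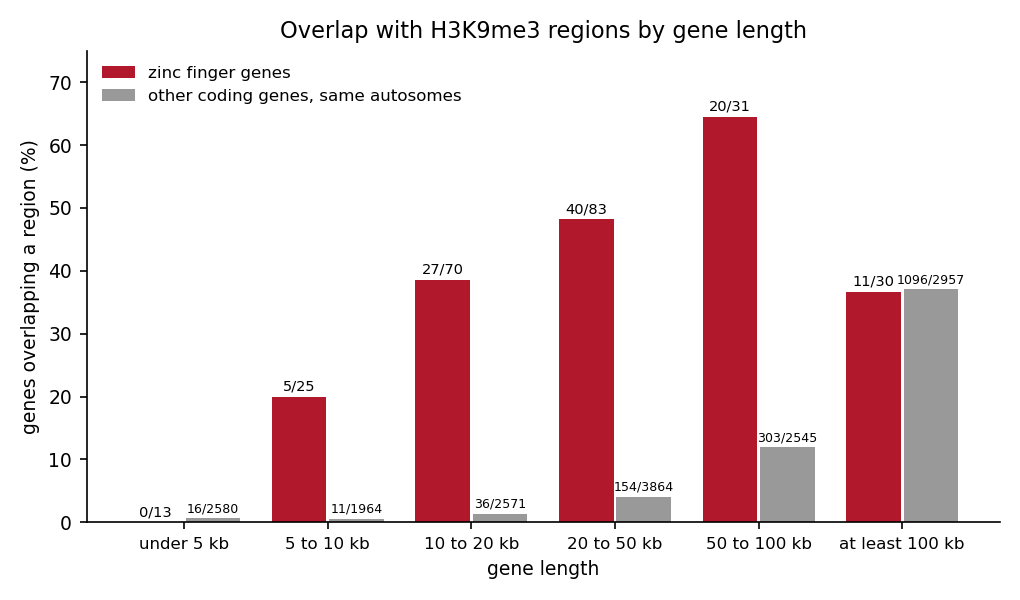
Share of genes overlapping an H3K9me3 region (y axis, percent) in 6 classes of gene length (x axis), for the zinc finger genes and for the other coding genes of the same autosomes, with the counts above each bar. The zinc finger genes stand above the others from 5 to 100 kb and level with them at 100 kb and above.

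The regions lay toward the ends of the genes. Where strand was known, all but 1 of the starts were free, as were the starts of nearly all other coding genes. Strand was taken from a RefSeq promoter table that holds 204 of the 252 genes, 86 of them with a region. It holds none of the 19 genes of chromosome 8, ZNF572 among them, so results by strand leave that chromosome out. The end of the gene lay in a region for 44 of the 204 genes (21.6%, Wilson 95% interval 16.5 to 27.7%), against 0.762% of all coding genes of these autosomes with strand. Without the zinc finger genes that background was 0.434%. Covered ends were not particular to this set: on chromosome 19, 88 of 228 zinc finger genes (38.6%) had one, and on chromosome 7, 9 of 35 (25.7%). The start lay in a region for 1 of the 204 genes (0.49%, interval 0.09 to 2.72%), against 0.16% of all coding genes. That gene was ZNF595, whose end was covered as well, so that 43 genes were covered at the end and not at the start and 0 the other way round. The remaining 42 genes with a region had it inside the gene body. Among the 1328 other coding genes with a region and strand, 51 were covered at the end only and 15 at the start only. Covered starts were found in 5 of 228 zinc finger genes (2.19%) on chromosome 19 and 3 of 35 (8.57%) on chromosome 7.

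Along the gene body, cut into 10 bins of equal length, the mean share of a bin in regions was 3.43% in bin 1 of the 86 genes, at the start, 9.83% in bin 2 and 35.1% in bin 5. It was 52.3%, 55.1%, 55.4% and 52.8% in bins 7 to 10. The 1324 other genes with a region and at least 1 kb long ran from 2.82% in bin 1 to 5.2% in bin 9, with 4.41% in bin 10. Gene length was not matched. Its median was 159.8 kb over all 1616 other genes with a region and 29.3 kb over the 103 zinc finger genes with one. Gene by gene, 65 of the 86 zinc finger genes had more coverage in the downstream than in the upstream part of the body, and 21 had less. A region touched bin 1 in 6 genes and bin 10 in 55.

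**Figure D3:**
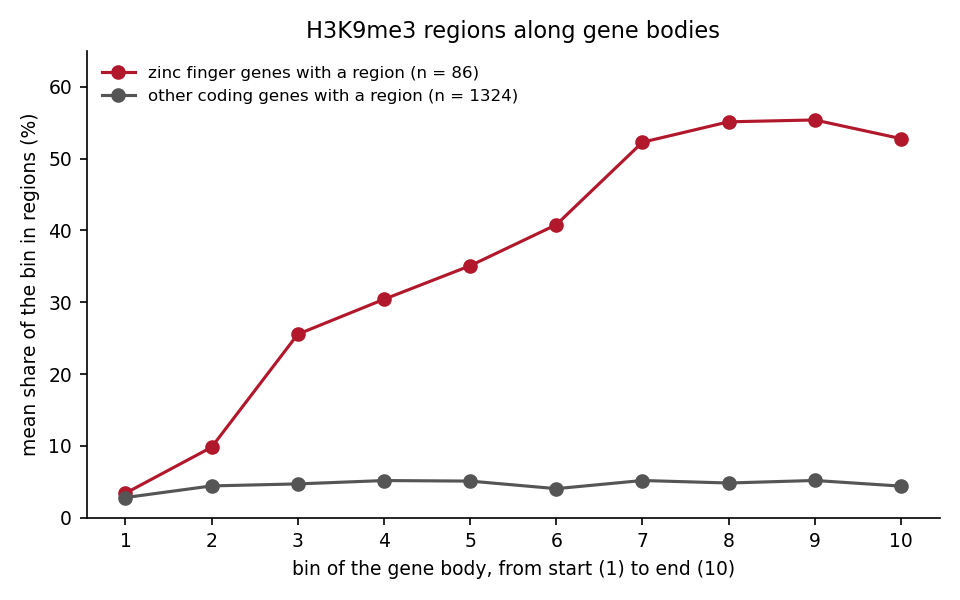
Mean share in H3K9me3 regions (y axis, percent) of 10 equal bins of the gene body (x axis) from the start (1) to the end (10) of the gene, for 86 zinc finger genes and 1324 other coding genes that overlap a region. The zinc finger curve climbs from 3.43% to above 50% in bins 7 to 10, and the other curve stays between 2.82% and 5.2%.

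The first covered base lay a median of 11 kb downstream of the start (quartiles 5.65 and 23.8 kb). In the 28 genes with strand that were covered over at least 50% of their length the free stretch ran from 0 to 28.7 kb, with a median of 5.91 kb, and it was at most 2.5 kb in 6 of them. It measured 1.36 kb in ZNF501, 1.68 kb in ZNF32, 1.71 kb in ZFP37, 1.99 kb in ZNF300 and 2.04 kb in ZNF502, and the coverage of these 5 genes then ran past the gene's end. It was longer in ZNF891 (4.86 kb), ZNF454 (16.2 kb), ZNF605 (18.2 kb), ZNF141 (20.9 kb) and ZNF717 (28.7 kb). At the other side, the last covered base lay within 1 kb of the end or beyond it in 46 of the 86 genes. Where the end was covered, the region went on for a median of 3.91 kb past it (quartiles 1.61 and 6.18 kb), up to 29.4 kb in ZNF717.

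Promoter windows, from 250 bases before to 50 after each annotated start, gave the same picture. Of 275 windows for the 204 genes, 1 touched a region, the window of ZNF595, which lay in it over all 300 bases. For other coding genes of the same autosomes it was 20 of 18214 windows (0.11%). The windows of zinc finger genes with a region held a median of 24 CG dinucleotides, those of genes without a region 23.5, and those of other coding genes 22 (over 86, 118 and 12912 genes, taking the window nearest to the gene's start). At least 20 CG were present in 65.1%, 70.3% and 56.4% of them.

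The window of ZNF595 and those of the 3 most covered genes of the promoter table whose window at the gene start was free of regions are shown here, because they mark the contrast between a covered and an uncovered start in genes that are otherwise covered over most of their length. Each reads 5′ to 3′ on the gene's strand, from RefSeq on GRCh38.p14, with every CG in capitals. ZNF595 is on the plus strand at chr4:53071-53370, ZFP37 on the minus strand at chr9:113056675-113056974, ZNF501 on the plus strand at chr3:44729385-44729684 and ZNF502 on the plus strand at chr3:44712410-44712709.
ZNF595: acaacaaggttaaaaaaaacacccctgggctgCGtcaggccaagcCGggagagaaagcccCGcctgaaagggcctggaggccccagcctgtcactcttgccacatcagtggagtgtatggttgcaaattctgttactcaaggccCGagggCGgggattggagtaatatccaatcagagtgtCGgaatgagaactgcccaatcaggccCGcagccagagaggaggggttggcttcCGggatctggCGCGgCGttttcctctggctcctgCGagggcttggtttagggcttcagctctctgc
ZFP37: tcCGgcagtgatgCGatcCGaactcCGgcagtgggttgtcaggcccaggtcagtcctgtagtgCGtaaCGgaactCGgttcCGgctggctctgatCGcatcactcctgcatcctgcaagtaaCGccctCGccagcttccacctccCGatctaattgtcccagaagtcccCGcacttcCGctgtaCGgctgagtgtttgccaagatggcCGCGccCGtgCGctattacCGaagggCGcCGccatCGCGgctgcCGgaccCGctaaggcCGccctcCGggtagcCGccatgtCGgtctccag
ZNF501: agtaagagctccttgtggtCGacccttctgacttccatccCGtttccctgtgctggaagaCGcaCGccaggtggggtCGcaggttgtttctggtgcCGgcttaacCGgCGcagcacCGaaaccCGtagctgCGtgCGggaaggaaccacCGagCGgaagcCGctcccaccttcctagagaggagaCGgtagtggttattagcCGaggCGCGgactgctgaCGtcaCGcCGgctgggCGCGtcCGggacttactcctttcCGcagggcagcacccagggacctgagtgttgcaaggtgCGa
ZNF502: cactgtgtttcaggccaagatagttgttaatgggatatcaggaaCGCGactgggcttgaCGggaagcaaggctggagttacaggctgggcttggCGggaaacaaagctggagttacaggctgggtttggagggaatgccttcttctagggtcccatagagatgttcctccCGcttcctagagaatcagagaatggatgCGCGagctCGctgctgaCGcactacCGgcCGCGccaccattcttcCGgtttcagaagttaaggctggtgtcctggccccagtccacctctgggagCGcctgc
The covered window of ZNF595 held 12 CG at a GC content of 58%. The free windows held 30 CG in ZFP37, 27 in ZNF501 and 14 in ZNF502, at GC contents of 64%, 63% and 56.7%. With 1 covered window, no comparison of base composition can be made between covered and free starts.

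Genes standing together were more often covered than genes standing alone. Members within 500 kb of each other were chained, which gave 20 clusters of 3 to 13 genes with 107 genes in all, 32 genes in pairs and 113 isolated genes. In clusters 59 of 107 genes (55.1%, Wilson 95% interval 45.7 to 64.2%) overlapped a region, in pairs 14 of 32 (43.8%, 28.2 to 60.7%) and among isolated genes 30 of 113 (26.5%, 19.3 to 35.4%). The median covered share of those with a region was 39.4%, 15.7% and 23.8%. Clustered genes were shorter, with a median of 18 kb against 30 kb for isolated genes. The counts are not independent within a cluster, and the difference was not tested.

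In 4 clusters every gene had a region. On chromosome 12, from 132918306 to 133214832, the 7 genes ZNF605 to ZNF268 had covered shares between 16.8% (ZNF26) and 81.0% (ZNF891), and 13 regions covered 44.5% of the span. The share of ZNF26 was 9.72% among regions with scores at or above the median. ZNF140 and ZNF891 in this cluster run toward each other, and 1 region of 31.9 kb covered the ends of both. On chromosome 5, from 178711512 to 179083977, the 6 genes ZNF354A to ZNF354C had covered shares between 27.2% (ZNF354B) and 74.7% (ZNF354C). On chromosome 4, from 53321 to 499156, the 5 genes ZNF595 to ZNF721 had covered shares between 34.1% (ZNF732) and 94.8% (ZNF595), and the stretches between the genes were covered nearly as densely. On chromosome 10, from 37758538 to 38150293, the 4 genes ZNF248 to ZNF37A were covered less, between 6.83% (ZNF33A) and 38% (ZNF37A).

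Of the other 16 clusters, 10 had a region in at least 50% of their genes and 6 in fewer. Among the 10 were ZNF445 to ZNF501 on chromosome 3 (7 of 9 genes) and ZNF487 to ZNF32 on chromosome 10 (3 of 4). Among the 6, the largest, on chromosome 16 from 30378312 to 31917357, had a region in ZNF267 (32.9%), its last gene, and in none of the other 12, from ZNF48 onward. On chromosome 6, from 28080282 to 28443491, 2 of 10 genes were touched, ZNF165 over 27.6% and ZSCAN31 over 15%. In the cluster ZNF593OS to ZNF683 on chromosome 1 none of 3 was. The second cluster of chromosome 16, from 3088890 to 3443504, was split: ZNF200, ZNF75A, ZSCAN32 and ZNF174 were covered over 34.9 to 56.9%, and ZSCAN10, ZNF205, ZNF213, ZNF263 and ZNF597 had no region. Covered and free genes therefore stood side by side in the same clusters.

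Within most clusters the zinc finger genes were covered more densely than the bases between them. In 16 of the 20 clusters a larger share of the bases inside these genes than of the remaining bases lay in regions. On chromosome 5 it was 56.5% against 4.33%, in the cluster ZFP3 to ZNF594 on chromosome 17 42.1% against 3.42%, and on chromosome 12 51.4% against 26.0%. On chromosome 4 the shares were close, 51.9% and 47.4%. The order was the other way in ZFP69B to ZNF684 on chromosome 1 (22.1% against 36.5%), ZNF397 to ZNF396 on chromosome 18 (16% against 24.2%) and the chromosome 6 cluster (4.65% against 5.67%). Of the 91 coding genes with other names that touch the 20 spans, 40 touch the span ZNF48 to ZNF267 on chromosome 16. A region overlapped 4 of the 91 (4.40%), beside 9.8% of the other coding genes of the same autosomes, without matching for gene length. These 4, named after their values were seen, were LOC124905412 (59.4%), GRM6 (48.8%), COMMD5 (36.2%) and KRABD5 (43.3%). The first 3 share bases with the zinc finger genes ZNF718, ZNF454 and ZNF7.

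**Figure D4:**
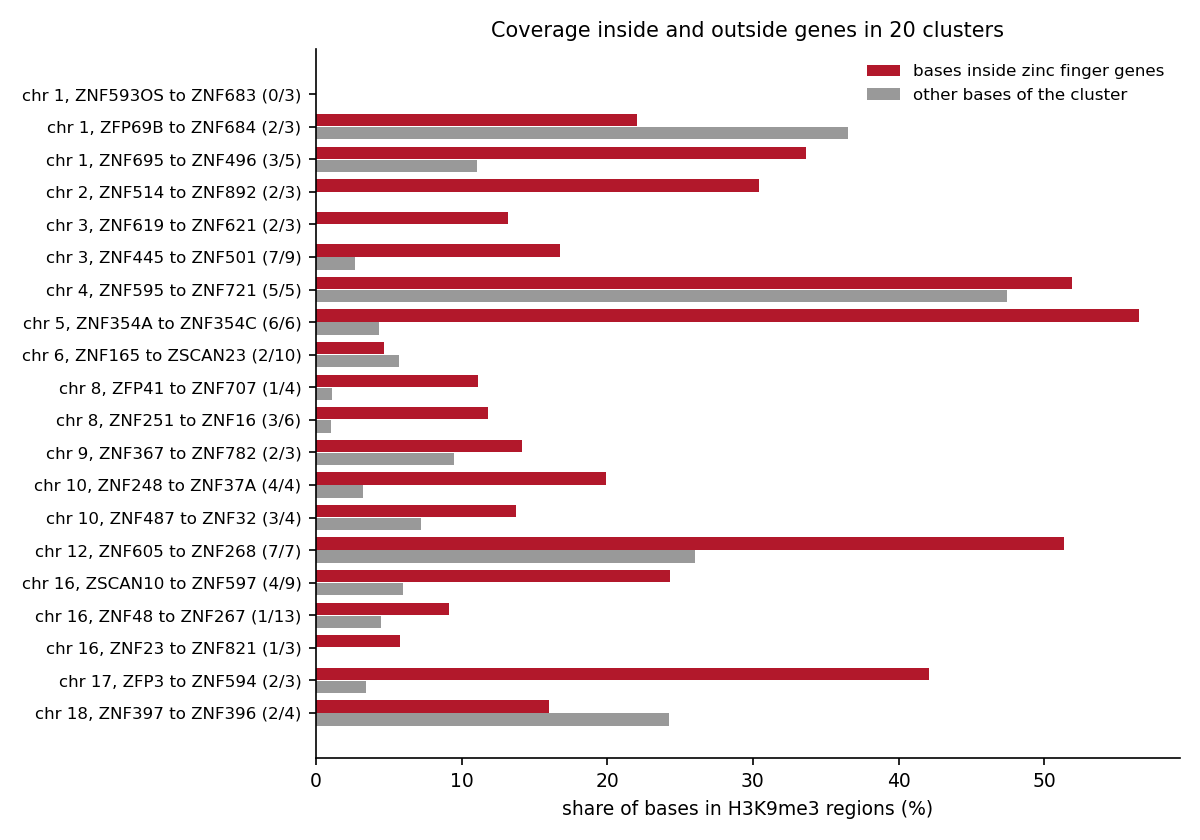
Share of bases in H3K9me3 regions (x axis, percent) inside zinc finger genes and in the other bases of the span, for 20 clusters named by chromosome and by first and last gene, with the number of genes overlapping a region and the number in the cluster in brackets. The clusters on chromosomes 4, 5 and 12 have more than 50% of their genic bases in regions.

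**Figure D5:**
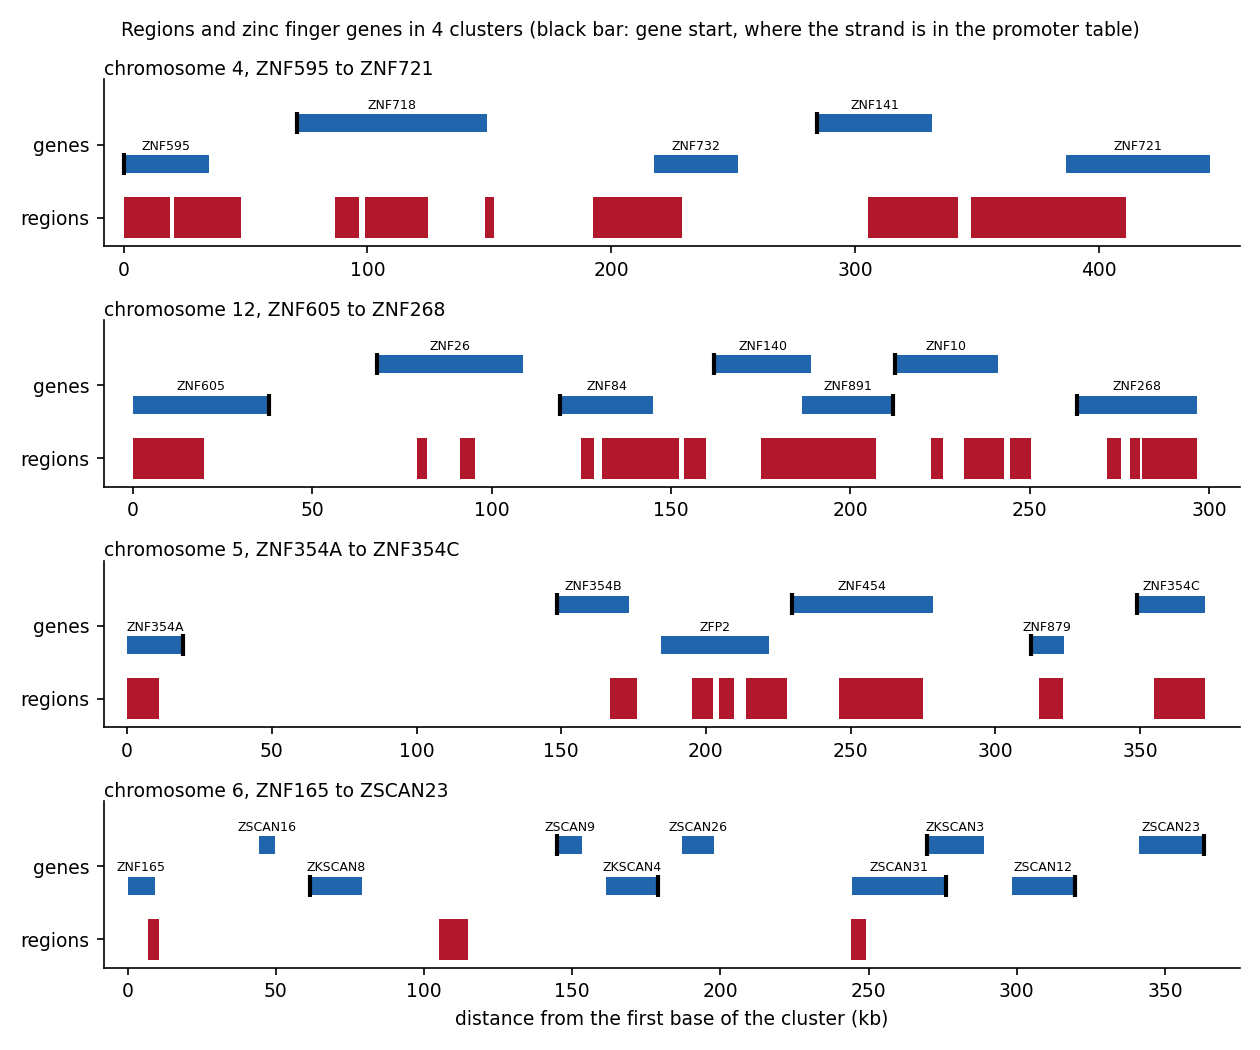
Regions and zinc finger genes in 4 clusters, drawn to scale as distance from the cluster's first base (x axis, kb), with a black bar at each gene start where the promoter table gives the strand. On chromosomes 5 and 12 the marked gene starts are free of regions, on chromosomes 4 and 12 regions also lie between genes, and on chromosome 6 they touch 2 of 10 genes.

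The regions in these genes were long for this list. In all, 136 regions touched the 252 genes, 1.46% of the regions on these autosomes and 3.30% of their region bases. Their median length was 5739 bp (quartiles 3506 and 13810 bp), against 3474 bp for the 9164 regions of the same autosomes that touched none of the genes. At least 10 kb was reached by 46 of the 136 (33.8%) and by 3.6% of the others. Over all regions of chromosomes 1 to 22, X and Y the median was 3529 bp, and 5.29% reached 10 kb. Picking regions for touching a gene in itself favours long ones, and how much this adds was not tested. The median score per bp was 9.39 (quartiles 7.35 and 11.3) in the 136 regions, against 6.90 in those touching none of the genes. Of the bases of the 136 regions 78.7% lay inside the zinc finger genes, a share that is high by construction, since these regions were picked for touching them. Without that selection, 8.79% of the summed length of the 252 genes lay in regions, against 0.883% for the other coding genes of the same autosomes. A region touched 2 of the genes in 4 cases.

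By symbol prefix, the shares of genes with a region had wide, overlapping intervals. A region was present in 88 of 220 genes named ZNF (40.0%, Wilson 95% interval 33.7 to 46.6%), in 8 of 15 named ZFP (53.3%, 30.1 to 75.2%), in 6 of 12 named ZSCAN (50%, 25.4 to 74.6%) and in 1 of 5 named ZKSCAN (ZKSCAN7, 14.1% covered). ZSCAN and ZKSCAN proteins carry a SCAN domain, which pairs proteins with each other. The highest covered share among the ZSCAN genes was 45.9%, in ZSCAN29.

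A list of 8 of the 252 genes was drawn up by hand, mainly around roles in imprints, pluripotency or retroelements, with earlier results of these data known. It also holds ZNF10 and ZNF202, for which other roles are given below, so its share does not stand for that class. Of the 8 listed genes, 5 had a region (62.5%, beside 40.9% of the 252 genes and 10.3% of all coding genes of these autosomes). ZNF268 was covered over 66.0%, ZNF483 over 51.9% and ZNF10, the source of a widely used KRAB repression domain, over 44.5%. ZNF33A was covered over 6.83% and ZNF445, which protects imprints, over 6.72%. Both lost their region when the lower-scoring part of the list was left out. No region touched ZFP57, the other known protector of imprints, where the nearest region lay 424 kb away. None touched ZFP42, a marker of pluripotent cells (254 kb), or ZNF202, a repressor of genes of lipid metabolism (46.6 kb).

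A second list held 20 of the 252 genes, known mainly as gene regulators outside the KRAB family. It too was drawn up by hand with earlier results of these data known, and KRAB domains were not assigned from sequence. Its share is a description of the listed genes and no comparison of protein classes. A region was present in 1 of the 20 genes (5.00%), beside 40.9% of the 252 genes and 10.3% of all coding genes of these autosomes. That gene was ZFP64, covered over 2.90% of its length. Genes without a region included ZNF143, a promoter-binding activator (nearest region 346 kb away), ZNF217, an oncogene amplified in breast cancer (835 kb), ZNF423, a factor of fat cell commitment (408 kb), and ZNF750, a factor of epidermal differentiation (7.57 kb). ZNF24 was free with a region 2.79 kb away, and ZNF281 with one at 637 kb. ZFP36L1 and ZFP36L2, which promote the decay of mRNAs, were free at 144 and 45.7 kb.

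The 149 genes without a region lay a median of 109 kb from the nearest one, 9 of them within 10 kb and 3 farther than 1000 kb. The 5 longest of them were ZNF385D (960.5 kb), ZNF407, ZNF423, ZNF521 and ZNF704. The distance to the nearest region was 42.2 kb for ZNF385D, 11 kb for ZNF407, 41.6 kb for ZNF521 and 58.7 kb for ZNF704.

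Among 23 genes of the machinery that writes, binds or removes H3K9 methylation, 5 overlapped a region (21.7%, beside 10.5% of all coding genes), each over less than 10% of its length. The comparison with all coding genes rests on 23 genes, is not matched for gene length and was not tested. The covered shares were 5.75% in ATF7IP and 4.85% in SETDB1, partners in the complex that KRAB proteins recruit, 5.34% in SETDB2, and 1.66% in KDM4B and 0.62% in KDM4C, which are H3K9 demethylases. TRIM28, the corepressor that binds KRAB, had none, with the nearest region 107.8 kb away, and neither ERH nor the genes of the heterochromatin proteins CBX1, CBX3 and CBX5 overlapped a region.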

How the data were processed

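The labels' protocols describe CUT&RUN for H3K9me3 and SOX2 in BJ cells. The submitters' processing notes name hg38 and Bowtie2 2.3.4.1, SAMtools 1.16.1, bedtools 2.27.1, deepTools 3.5.0, R 3.6.3 and SEACR 1.3, without their roles. The caller's settings, any control library and the merging of replicates are not given in the sources used here. The authors deposited, in 1 list for the 3 siERH H3K9me3 samples, each region's position and a score without a unit, and a piece number that exceeds 1 in 17 rows, none of which touches the genes described. Scores were used only within the list.

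Gene positions are those of RefSeq on GRCh38.p14, with strand and promoter windows from its promoter table (204 of 252 genes). A gene overlapped when at least 1 bp lay in a region, and covered shares use the union of regions. No test was made. Classes by protein domain, and the alternative that keeps genes with a C2H2 match, were not run, since they need protein sequences, which were not used here. The covered-base arithmetic was tested on simulated data and gave 0 wrong answers in 500 checks base by base. Named genes were the 25 most covered, the most and least covered of each cluster, the 5 longest without a region, those of 2 lists and those with a region of at least 50 kb or a covered start; not each is printed. The genes and lists were chosen with earlier results of these data known. Python 3.11.15, numpy 2.4.6, pandas 2.3.3, scipy 1.17.1 and matplotlib 3.10.9 were used.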

Additional observations from a re-analysis of the deposited data

How the results depend on the processing

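Over 12 counts and medians, 83 values were computed under alternatives, and 75 stayed within 1.5 times the main count or, for medians, within the 95% binomial interval of the median. Some of the 75 could not move. Leaving out readthrough and opposite-strand loci cannot change the counts of chromosome 7, chromosome 19 or H3K9 methylation genes. The number of genes with a region ranged from 79, where 10% of the body had to be covered, to 107, with 5 kb added on each side, around the 103 reported. The number with a covered end ranged from 43 to 46. The number with a covered start went from 1 to 2 with regions within 5 kb joined (ZNF501 added) and to 2 within 1 kb of the start (ZFP69 added). Requiring 10% of the body to be covered, the median covered share was 40.9%, the count of isolated genes 17 and that of H3K9 methylation genes 0, all by construction of a stricter rule. With scores at or above the median, the regions in these genes had a median length of 8661 bp and 10.2 score units per bp, and 2 H3K9 methylation genes overlapped. For 84 named genes, 331 of 336 covered shares stayed within 1.5 times. Between 41 and 44 of the 84 were 0 in each setting, and a gene at 0 in the main run counted as unchanged where it stayed at 0. Leaving out regions could not move such a gene, so those values say nothing about stability. With scores at or above the median ZNF33A, ZNF445 and ZNF621 lost their region and ZNF26 went from 16.8% to 9.72%, and ZNF717 lost its own when regions above 20 score units per bp were left out. That last setting and leaving out the 3 readthrough loci and the opposite-strand locus were chosen after the data were seen. Depth is unknown, so a gene without a region cannot be told from a gene whose signal stayed under the caller's threshold. Leaving out a replicate was not possible. No paired analysis was possible because only 1 pooled list of 1 group was analysed.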

Other observations

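Zinc finger pseudogenes, which are not among the 252 genes, were often covered as well. Of the 64 pseudogenes on the same autosomes (13 and 21 included) whose symbols follow the same pattern, 25 overlapped a region (39.1%), against 2.34% of all 14223 pseudogenes there. Their median length was 1.5 kb, against 0.686 kb for all pseudogenes. Within 500 kb of a zinc finger gene 14 of 26 overlapped a region, and farther away 11 of 38 (28.9%). ZNF299P and ZNF355P on chromosome 21, which holds no coding zinc finger gene of this naming, ZNF859P on chromosome 1 and ZNF75CP on chromosome 11 were covered over 100% of their length. Of the 10 pseudogenes of at least 15 kb, 8 overlapped a region, with covered shares of 18.9 to 84.6%, and 2 did not. Among these 8, ZNF300P1 (16.1 kb) was covered over 84.6%, ZNF271P (20.5 kb) over 62.3%, ZNF37BP (39.4 kb) over 61.0% and ZNF252P (29.3 kb) over 58.2%, whereas ZNF286B (23.9 kb) was covered over 35.2% and ZNF876P (43.4 kb) over 23.8%. These genes were chosen after their values were seen. Long noncoding genes with such symbols overlapped in 10 of 48 cases (20.8%), against 8.05% of all long noncoding genes, and some of them overlap the coding genes described above.

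On chromosome X, outside the genes described, 7 of 13 zinc finger genes overlapped a region, with covered shares of 3.98 to 17.3% and a median of 14.5%.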
